A study of Rattus norvegicus with 8 samples.

Results

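The genes described here encode the Wnt ligands, the enzymes that process them, their frizzled receptors, co-receptors and R-spondin receptors, the secreted inhibitors, and the cytoplasmic and nuclear effectors of the β-catenin branch. They were chosen by gene symbol, from a written list of families and names that uses no measured value. On the array, 54 genes matched, each by 1 probe set, out of 23188 probe sets and 15037 distinct gene symbols, and 8 further genes that the list names were not analysed here. RNA came from primary cultures of oligodendrocyte progenitor cells (OPCs), the cells that give rise to myelinating oligodendrocytes, and was hybridised to Affymetrix Clariom S rat arrays. The cultures were made from brains of Sprague Dawley rat pups of both sexes at postnatal days 1 and 2. Meninges and vessels were removed, and OPCs were shaken off mixed glia after a first round of shaking to remove microglia. All samples shared a serum-free defined medium with insulin, transferrin and hydrocortisone, to which the methods add the growth factors PDGF and bFGF, without saying whether they stayed in during treatment. The 4 IL-4 samples received interleukin-4 at 20 ng/mL for 3 d, and the 4 PBS samples received the vehicle for 3 d. The methods call the samples of a condition biological replicates, while the labels do not say which pups or cultures a sample came from, so p-values measure the spread among these samples.

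In the canonical branch of the pathway, a Wnt protein joins a frizzled receptor to the co-receptor LRP5 or LRP6, and Dishevelled then disables the complex of AXIN, APC and GSK3 that marks β-catenin for destruction. β-Catenin that escapes destruction enters the nucleus and acts with TCF/LEF factors on target genes, several of which encode inhibitors of the pathway itself. In the oligodendrocyte lineage the pathway is known for its stage-dependent effects, since strong β-catenin signalling holds OPCs back from maturing while the same pathway takes part in their specification and spread through the brain.

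All values are log2 RMA signals of a probe set, on which a difference of 1 is a 2-fold change, and differences are IL-4 minus PBS. They were tested with limma over all 23188 probe sets with Benjamini-Hochberg adjustment, and a gene that rose or fell is one with an adjusted p under 0.05. Signals of different probe sets are not comparable, so each gene is set only against itself. A gene is called dim where its mean with IL-4 and its mean with PBS both lay under 5.41, the 95th percentile of the means of 1057 olfactory receptor genes, which stand here for genes that OPCs are not known to use. Of those olfactory receptor genes, 155 passed as higher and 121 as lower (26.1% together), and calls on dim genes are to be read against that share. Arrays have no read depth, and the number of arrays limits the precision.

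Both treatments gave cultures of the labelled cell type mixed with others, and the PBS arrays were the less alike. The mean signal of 8 OPC markers, among them Pdgfra, Olig2 and Sox10, lay between 14.33 and 14.40 with IL-4 and between 14.04 and 14.44 with PBS. Of these 8, 1 rose (Vcan) and 1 fell (Sox10). The mean of 8 markers of mature oligodendrocytes lay between 15.61 and 15.69 with IL-4 and between 13.92 and 15.47 with PBS, and 5 of the 8 rose. The mean of 13 microglial markers lay between 9.22 and 9.33 with IL-4 and between 8.45 and 9.96 with PBS, and 6 of the 13 rose (C1qa, C1qb, C1qc, Csf1r, Aif1 and P2ry12) and 2 fell (Cx3cr1 and Tmem119). PBS array 4 had the highest PBS value on 12 of the 13. It lay above every IL-4 array on 7 of the 13 and below every IL-4 array on 4. The mean of 12 neuronal markers, of which 3 rose and 3 fell, lay between 7.64 and 7.75 with IL-4 and between 7.62 and 8.15 with PBS, highest on PBS array 1. For 8 astrocyte markers the ranges were 9.26 to 9.49 with IL-4 and 9.18 to 9.64 with PBS. Of these 8, 2 rose (Gfap and Slc1a2) and 3 fell (Slc1a3, Gja1 and Fgfr3), which the mean does not show. For 11 markers of fibroblasts and vessels, of which 7 were dim, the ranges were 4.32 to 4.46 with IL-4 and 4.49 to 4.69 with PBS. Of these 11, 1 rose (Pecam1) and 4 fell (Col3a1, Pdgfrb, Rgs5 and Cdh5). Pairs of IL-4 arrays had the same value to 2 decimals on 1413 to 1668 probe sets, and pairs of PBS arrays on 248 to 329. In RNA from a whole culture, fewer cells of a type and less RNA per cell cannot be told apart, and the part of these differences in the results below was not tested.

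With IL-4, ligands, receptors, inhibitors and effectors of the pathway changed in both directions, and the median of the set lay at that of all probe sets. Of the 54 genes, 8 rose (14.8%), 7 fell (13.0%) and 39 missed the test, against 12% of all probe sets that rose and 19.7% that fell. Their median log2 difference was -0.07, and that of all probe sets was -0.07. With a change of more than 2-fold as well, 1 gene rose (Fzd2, against 2.16% of all probe sets) and 2 genes fell (Lgr4 and Dkk3, against 2.34%). On 7 genes every IL-4 array lay above every PBS array (12.2% of all probe sets) and on 7 every IL-4 array lay below (20.6%). Thus the share of these genes that passed, 27.8%, was close to that of all probe sets, 31.6%, and the description that follows is one of single genes. It was 33.3% among the 30 genes that were not dim and 20.8% among the 24 that were. The share among dim genes lay below the 26.1% of the olfactory receptor genes.

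**Figure D1:**
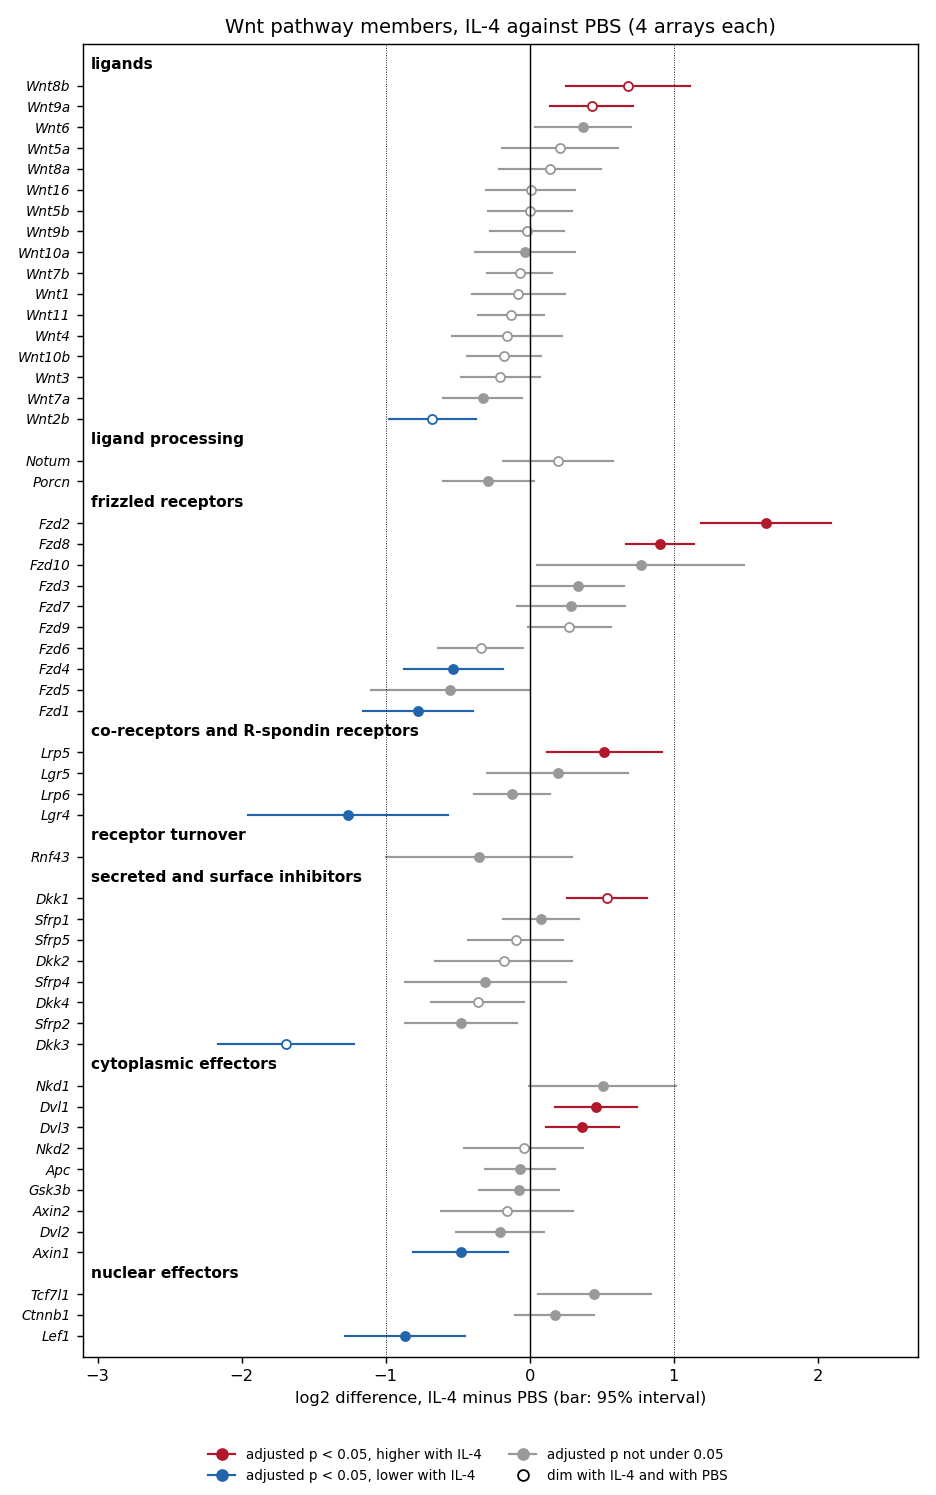
Log2 difference, IL-4 minus PBS, of the 54 Wnt pathway genes by role, with the 95% interval of the limma fit as a bar (4 arrays per treatment). Red genes rose, blue genes fell, grey genes missed an adjusted p under 0.05, and open circles are dim genes. Fzd2 lies farthest to the right at 1.64 and Dkk3 farthest to the left.

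The 8 calls on Wnt2b, Fzd1, Fzd2, Fzd8, Lgr4, Dkk1, Dkk3 and Lef1 held when each of the 8 arrays was left out in turn, and the other 7 did not hold in every case. None of the 15 calls held with limma when the 4 IL-4 arrays, the more alike of the groups, were averaged to 1 sample against the 4 PBS arrays, a fit that leaves every difference as it was (1.64 for Fzd2, -1.26 for Lgr4) and assumes that the lone sample varies like the PBS arrays. The methods' t-test ended the calls on Wnt8b, Fzd4, Lgr4, Lrp5 and Axin1 (adjusted p of 0.067 to 0.12), and leaving out PBS arrays 1 and 4 together ended those on Wnt8b, Wnt9a, Fzd4, Lrp5, Dvl1 and Dvl3 (adjusted p of 0.057 to 0.15). With the IL-4 arrays averaged the smallest adjusted p among the 54 genes was 0.093, and 3 genes lay higher and 4 lower at an unadjusted p under 0.05.

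Promoter sequence was at hand for 38 of the 54 genes, 11 of them among the 15 that passed, from RefSeq on the rat build GRCr8. The 250 bases before each start site were searched on both strands for the TCF/LEF words CTTTGAT and CTTTGAA and for a STAT6 motif (TTC and GAA 4 bases apart), STAT6 being the factor that IL-4 receptors activate. A TCF/LEF word was present in 4 of the 38 promoters (10.5%), those of Wnt8a, Dkk1, Axin2 and Nkd1, and in 7.6% of all 27457 promoters. The STAT6 motif was present in 1 of the 38 (2.6%), that of Wnt5a, and in 6.3% of all promoters, and no promoter of the 38 held both. A match is a description of the letters and not a binding site. Shown here are 3 promoters with a TCF/LEF word in capitals, of genes known in other tissues as targets that feed back on the pathway, then that of Lef1, a target of this kind without such a word in the window, and that of Fzd8, the gene with the smallest adjusted p. They lie at chr1:237798651-237798900 (Dkk1, minus strand), chr10:94398535-94398784 (Axin2, plus strand), chr19:34722847-34723096 (Nkd1, minus strand), chr2:222340463-222340712 (Lef1, plus strand) and chr17:62009744-62009993 (Fzd8, plus strand), and each is written 5′ to 3′ on the strand of its gene.
Dkk1: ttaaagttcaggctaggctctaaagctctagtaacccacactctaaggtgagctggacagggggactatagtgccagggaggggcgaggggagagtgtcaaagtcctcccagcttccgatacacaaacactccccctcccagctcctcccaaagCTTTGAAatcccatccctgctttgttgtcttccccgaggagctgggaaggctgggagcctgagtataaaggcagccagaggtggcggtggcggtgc
Axin2: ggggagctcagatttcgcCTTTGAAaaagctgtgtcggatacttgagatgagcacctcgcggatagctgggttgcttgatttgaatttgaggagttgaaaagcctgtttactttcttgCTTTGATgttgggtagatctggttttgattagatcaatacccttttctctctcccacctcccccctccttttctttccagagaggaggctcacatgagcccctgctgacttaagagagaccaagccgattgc
Nkd1: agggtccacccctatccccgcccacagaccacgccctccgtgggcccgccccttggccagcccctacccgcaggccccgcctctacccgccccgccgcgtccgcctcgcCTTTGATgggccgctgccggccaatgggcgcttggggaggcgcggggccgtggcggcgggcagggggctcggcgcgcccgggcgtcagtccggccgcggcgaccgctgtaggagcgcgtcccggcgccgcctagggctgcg
Lef1: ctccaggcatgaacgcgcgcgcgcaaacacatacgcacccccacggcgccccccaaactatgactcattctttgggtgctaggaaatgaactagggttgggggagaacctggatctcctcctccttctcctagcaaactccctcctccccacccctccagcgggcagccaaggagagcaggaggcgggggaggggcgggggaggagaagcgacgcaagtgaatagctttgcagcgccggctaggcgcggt
Fzd8: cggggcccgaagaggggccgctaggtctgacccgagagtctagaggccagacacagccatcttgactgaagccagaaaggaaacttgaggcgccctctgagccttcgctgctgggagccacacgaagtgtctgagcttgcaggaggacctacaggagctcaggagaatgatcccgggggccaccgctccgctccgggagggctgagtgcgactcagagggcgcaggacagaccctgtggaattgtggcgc
The word begins 96 bases before the start site in Dkk1 (CTTTGAA) and 141 bases before it in Nkd1 (CTTTGAT). Axin2 holds both words, 232 and 132 bases before its start. Of these 5 genes, Dkk1 and Fzd8 rose, Lef1 fell, and Axin2 and Nkd1 missed the test, as described below.

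The 17 measured Wnt ligands were mostly dim. A dim signal was found for 14 of them, and 2 rose, 1 fell and 14 missed the test, with all 3 that passed among the dim ones. Wnt2b, a ligand of the canonical branch, measured 3.50, 3.64, 3.97 and 3.71 on the IL-4 arrays and 4.19, 4.62, 4.37 and 4.35 on the PBS arrays. Every IL-4 value lay below every PBS value, and the gene fell by 0.68 on the log2 scale (SE 0.137, adjusted p = 0.0043). Wnt8b, known from the developing forebrain, measured 4.32, 4.29, 4.91 and 4.23 on the IL-4 arrays and 3.50, 4.20, 3.50 and 3.81 on the PBS arrays. The groups did not overlap, by a narrow margin between IL-4 array 4 and PBS array 2, and the gene rose by 0.69 (SE 0.195, adjusted p = 0.022). The call was lost without PBS array 1 (0.60, adjusted p = 0.057), PBS array 3 (0.60, adjusted p = 0.064) or IL-4 array 3 (0.53, adjusted p = 0.057).

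Wnt9a, a ligand known from joints and blood development, measured 4.69, 5.09, 4.92 and 4.72 on the IL-4 arrays and 4.24, 4.57, 4.37 and 4.52 on the PBS arrays. All IL-4 values lay above the PBS values, and the gene rose by 0.43 (SE 0.130, adjusted p = 0.028). Without PBS array 1, PBS array 3, IL-4 array 2 or IL-4 array 3 the difference lay between 0.35 and 0.41 and the adjusted p between 0.064 and 0.082. Among the ligands that missed the test, 3 were not dim (Wnt6, Wnt7a and Wnt10a). Wnt7a, a ligand known for its action on brain vessels, measured 5.81, 5.70, 5.69 and 5.69 with IL-4 and 5.80, 6.22, 5.95 and 6.23 with PBS. The groups met at the first array of each, and the difference of -0.33 (95% interval -0.60 to -0.05) had an adjusted p of 0.067, which became 0.029 without PBS array 1 (difference -0.41). Wnt10a, a ligand known from teeth and skin appendages, averaged 6.63 ± 0.158 with IL-4 and 6.66 ± 0.301 with PBS (SD, n = 4 each). The other ligands that missed the test were Wnt1, Wnt3, Wnt4, Wnt5a, Wnt5b, Wnt6, Wnt7b, Wnt8a, Wnt9b, Wnt10b, Wnt11 and Wnt16, and over the 14 the differences ran from -0.33 to 0.37.

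Neither of the 2 genes of ligand processing passed. Porcn, the acyltransferase that puts the lipid on Wnt proteins, measured 9.25, 9.48, 9.48 and 9.33 with IL-4 and 9.95, 9.78, 9.64 and 9.32 with PBS. PBS array 4 lay among the IL-4 arrays, and the difference was -0.29 (95% interval -0.60 to 0.03, adjusted p = 0.15). Without PBS array 4 it was -0.40 with an adjusted p of 0.031. Notum, the enzyme that removes this lipid, was dim, at 3.28, 3.12, 3.45 and 3.40 with IL-4 and 2.94, 2.93, 2.94 and 3.66 with PBS. Its 3 other PBS values lay together below the IL-4 values and PBS array 4 above them all, so the difference was 0.20 (adjusted p = 0.42) with that array and 0.38 (adjusted p = 0.034) without it. PBS array 4 was also the array with the highest PBS value on 12 of 13 microglial markers. The part of microglia in the values of Porcn and Notum was not tested.

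The frizzled receptors, the seven-pass receptors that bind Wnt proteins, held the largest rise of the set. Of 10 measured, 2 rose, 2 fell and 6 missed the test. Fzd2, which serves both branches of the pathway, measured 9.27, 9.43, 9.22 and 9.22 on the IL-4 arrays and 7.37, 8.32, 7.62 and 7.26 on the PBS arrays. The IL-4 values were nearly equal, the PBS values were spread with array 2 the highest, and the groups lay nearly 1 log2 unit apart at their nearest. The rise was 1.64 on the log2 scale (SE 0.204, adjusted p = 3.6e-04), or 3.12-fold, and ran from 1.31 to 1.87 over all alternatives. Fzd8, a receptor of the canonical branch, measured 6.22, 6.17, 6.43 and 6.22 on the IL-4 arrays and 5.37, 5.38, 5.41 and 5.26 on the PBS arrays. Both groups were tight and clearly apart, with the PBS values around the limit for dim genes, and the rise was 0.91 (SE 0.107, adjusted p = 2.8e-04), or 1.87-fold.

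Fzd1, also of that branch, measured 6.80, 7.41, 7.49 and 7.29 on the IL-4 arrays and 8.18, 8.27, 7.79 and 7.86 on the PBS arrays. All IL-4 values lay below the PBS values, IL-4 array 1 the farthest, and the gene fell by 0.78 (SE 0.173, adjusted p = 0.0069). Fzd4, the receptor for norrin as well as for Wnt proteins, measured 6.10, 6.06, 5.72 and 5.82 on the IL-4 arrays and 6.64, 6.15, 6.74 and 6.29 on the PBS arrays. PBS array 2 lay just above the highest IL-4 value, and the gene fell by 0.53 (SE 0.157, adjusted p = 0.026). Without PBS array 1, PBS array 3, IL-4 array 3 or IL-4 array 4 the fall was between 0.43 and 0.49 and the adjusted p between 0.063 and 0.074.

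Of the frizzled genes that missed the test, Fzd10 measured 12.58, 12.42, 12.24 and 12.44 with IL-4 and 11.60, 12.58, 11.85 and 10.57 with PBS. The PBS arrays covered a range of 2 log2 units that took in all IL-4 values, and the difference was 0.77 (95% interval 0.05 to 1.49, adjusted p = 0.095). Without PBS array 2 it was 1.08 with an adjusted p of 0.014. Fzd3, known for its part in axon guidance, averaged 11.2 ± 0.168 with IL-4 and 10.9 ± 0.250 with PBS (SD, n = 4 each), a difference of 0.34 (adjusted p = 0.10) that quantile normalization turned into 0.48 (adjusted p = 0.032). Fzd5, named here after its values were seen, measured 6.98, 7.25, 6.96 and 6.93 with IL-4 and 8.31, 6.83, 7.62 and 7.56 with PBS. PBS array 2 lay below the IL-4 values and the other 3 above them, and the difference was -0.55 (adjusted p = 0.12). The others that missed the test were Fzd6, Fzd7 and Fzd9, between -0.34 and 0.29.

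**Figure D2:**
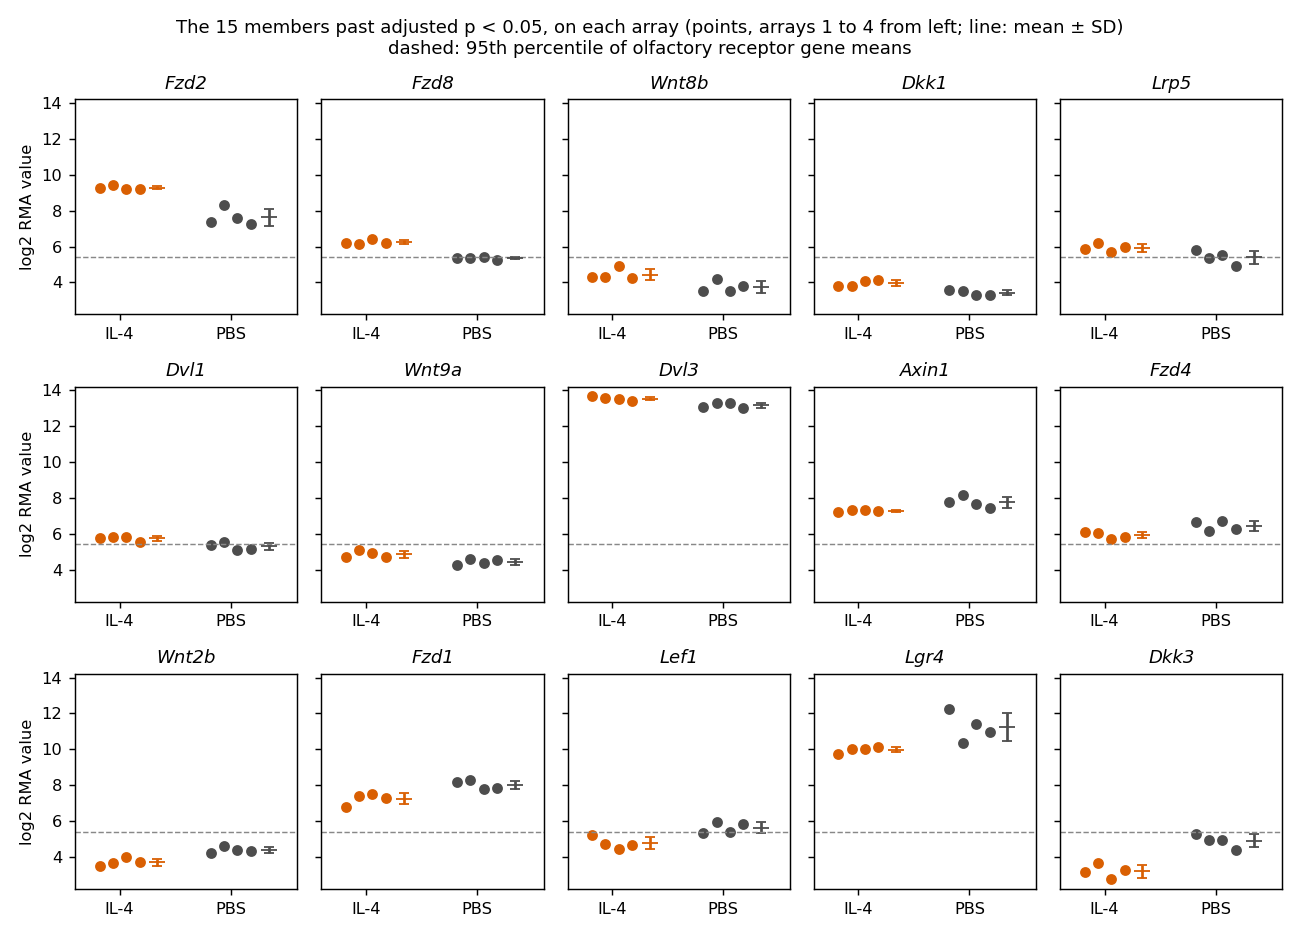
Log2 RMA signal of the 15 Wnt pathway genes that passed, on each of the 4 IL-4 arrays (orange) and 4 PBS arrays (grey), with mean and SD beside the points and the limit of 5.41 for dim genes as a dashed line. Treatments overlap on 1 gene, Lrp5, and Fzd2 and Lgr4 have widely spread PBS values beside closely grouped IL-4 values.

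Co-receptors and R-spondin receptors numbered 4, of which 1 rose and 1 fell. Lgr4, a receptor for R-spondins that keeps frizzled receptors on the cell surface, measured 9.75, 10.04, 10.03 and 10.11 on the IL-4 arrays and 12.23, 10.34, 11.42 and 10.98 on the PBS arrays. The IL-4 values lay close together below all PBS values, which were spread over nearly 2 log2 units with array 1 the highest and array 2 the lowest. The gene fell by 1.26 (SE 0.315, adjusted p = 0.012), and by 0.93 without PBS array 1 (adjusted p = 0.015), while the methods' t-test of equal variance gave an adjusted p of 0.069. Lrp5, a co-receptor that binds Wnt beside frizzled, measured 5.86, 6.19, 5.69 and 5.98 on the IL-4 arrays and 5.79, 5.38, 5.54 and 4.94 on the PBS arrays. PBS array 1 lay among the IL-4 arrays, and the rise of 0.52 (SE 0.181) had an adjusted p of 0.049, at the limit of the test. The call held without PBS array 1 and was lost without any other single array, with differences of 0.36 to 0.60 and adjusted p of 0.051 to 0.13. It was lost too with quantile normalization (adjusted p = 0.061), with array medians subtracted (0.051) and with an intensity trend (0.052).

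Lrp6, the other co-receptor, averaged 10.0 ± 0.177 with IL-4 and 10.1 ± 0.090 with PBS (SD, n = 4 each), and its difference of -0.13 had a 95% interval of -0.39 to 0.14. Lgr5, an R-spondin receptor and stem cell marker in the gut, measured 7.04, 5.89, 6.69 and 6.78 with IL-4 and 6.31, 6.28, 6.73 and 6.30 with PBS. IL-4 values lay on both sides of the PBS values (difference 0.20, adjusted p = 0.53). Rnf43, a ubiquitin ligase that removes frizzled receptors from the surface, measured 6.40, 6.77, 5.82 and 6.57 with IL-4 and 6.34, 7.37, 7.18 and 6.08 with PBS. The groups overlapped in part (difference -0.35, adjusted p = 0.39). PBS arrays 2 and 3 lay above the IL-4 arrays, and IL-4 array 3 lay below the PBS arrays. Taking out PBS arrays 1 and 4 together, a setting added after the data were seen, removes the PBS values that lay among the IL-4 values. The difference of Rnf43 was then -0.89 (adjusted p = 0.031), a separation fixed by that choice and no support for a fall.

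Of the 8 secreted inhibitors in this set, 1 rose and 1 fell, both dim, and 6 missed the test. Dkk3, a divergent member of the Dickkopf family whose effect on Wnt signalling varies with the cell, measured 3.17, 3.65, 2.76 and 3.25 on the IL-4 arrays and 5.30, 4.95, 4.95 and 4.41 on the PBS arrays. All IL-4 values lay well below the PBS values, which themselves lay under the limit for dim genes. It fell by 1.70 (SE 0.214, adjusted p = 4.0e-04), with a range of 1.55 to 1.86 over all alternatives. Dkk1, which blocks LRP5 and LRP6 and is a known target of β-catenin, measured 3.79, 3.83, 4.10 and 4.12 on the IL-4 arrays and 3.56, 3.52, 3.32 and 3.29 on the PBS arrays. The groups were apart, both far below the limit for dim genes, and the rise was 0.54 (SE 0.126, adjusted p = 0.0089).

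The secreted frizzled-related proteins bind Wnt ligands outside the cell, and none of the 4 in this set (Sfrp1, Sfrp2, Sfrp4 and Sfrp5) passed. Frzb, another of these proteins, is among the further genes described below, and it fell by 0.50 (adjusted p = 0.017). Sfrp2 measured 7.90, 7.78, 7.43 and 7.38 with IL-4 and 8.04, 7.92, 8.55 and 7.89 with PBS. The highest IL-4 value just passed the lowest PBS value, and the difference was -0.48 (95% interval -0.87 to -0.09, adjusted p = 0.060). It passed without IL-4 array 1 (-0.57, adjusted p = 0.049) and with array weights (-0.60, adjusted p = 0.028). Sfrp1 averaged 6.27 ± 0.062 with IL-4 and 6.19 ± 0.190 with PBS (SD, n = 4 each), and its 95% interval was -0.18 to 0.34. Sfrp4, Sfrp5, Dkk2 and Dkk4 lay between -0.36 and -0.10.

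Of the 9 cytoplasmic effectors, 2 rose, 1 fell and 6 missed the test, all 3 changes being under 1.4-fold. The Dishevelled proteins carry the signal inward from frizzled receptors. Dvl1 measured 5.79, 5.83, 5.85 and 5.56 on the IL-4 arrays and 5.35, 5.54, 5.12 and 5.17 on the PBS arrays. IL-4 array 4 lay just above PBS array 2, and the gene rose by 0.46 (SE 0.128, adjusted p = 0.019). Without PBS array 3, IL-4 array 2 or IL-4 array 3 it rose by 0.40 to 0.44 with an adjusted p of 0.053 to 0.055, past the limit.

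Dvl3 measured 13.66, 13.57, 13.53 and 13.42 on the IL-4 arrays and 13.10, 13.30, 13.30 and 13.02 on the PBS arrays. The groups did not overlap, and the gene rose by 0.37 (SE 0.115, adjusted p = 0.033). Without PBS array 1, PBS array 4 or any of IL-4 arrays 1 to 3 the difference was 0.31 to 0.37 with an adjusted p of 0.062 to 0.086, and without PBS arrays 1 and 4 together it was 0.24 (adjusted p = 0.15). Dvl2 missed the test at -0.21 (95% interval -0.51 to 0.10). Axin1, the scaffold of the destruction complex, measured 7.23, 7.31, 7.32 and 7.27 on the IL-4 arrays and 7.77, 8.18, 7.65 and 7.45 on the PBS arrays. All IL-4 values lay within 0.1 of each other below the PBS values, and the gene fell by 0.48 (SE 0.149, adjusted p = 0.032). Without PBS array 1 or any single IL-4 array the fall was 0.46 to 0.49 and the adjusted p 0.058 to 0.073, and quantile normalization gave a fall of 0.44 (adjusted p = 0.051).

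Among the 54 genes, the other members of the destruction complex, Gsk3b, Apc and Axin2, missed the test, as did Nkd1 and Nkd2. Gsk3b, the kinase that marks β-catenin, averaged 16.2 ± 0.055 with IL-4 and 16.3 ± 0.218 with PBS, with a 95% interval of the difference of -0.35 to 0.21. Apc, the large scaffold that holds β-catenin in the complex, averaged 14.7 ± 0.025 with IL-4 and 14.7 ± 0.153 with PBS (SD, n = 4 each), with an interval of -0.31 to 0.18. Nkd1, which binds Dishevelled and is a feedback inhibitor, measured 8.40, 8.32, 8.47 and 8.40 with IL-4 and 7.11, 8.26, 7.84 and 8.35 with PBS. PBS arrays 2 and 4 lay close to the IL-4 values and arrays 1 and 3 below it (difference 0.51, adjusted p = 0.12). Nkd2 and Axin2 were dim and differed by -0.04 and -0.16.

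Of the 3 nuclear effectors measured, Lef1 fell and the others missed the test. Lef1, a factor that binds DNA with β-catenin, measured 5.21, 4.74, 4.43 and 4.67 on the IL-4 arrays and 5.35, 5.94, 5.40 and 5.82 on the PBS arrays. Every IL-4 value lay below every PBS value, nearest on array 1 of each group, and the IL-4 mean lay under the limit for dim genes and the PBS mean above it. The fall was 0.87 (SE 0.189, adjusted p = 0.0064), or 1.82-fold. Ctnnb1, which encodes β-catenin itself, measured 15.00, 14.95, 14.87 and 14.87 with IL-4 and 15.01, 14.51, 14.69 and 14.78 with PBS. PBS array 1 matched the highest IL-4 array, and the difference of 0.18 had a 95% interval of -0.10 to 0.45. These are RNA levels, and the amount of β-catenin protein was not measured on the arrays. Tcf7l1, a TCF factor that mostly represses, measured 5.58, 6.13, 6.13 and 6.34 with IL-4 and 5.93, 5.60, 5.38 and 5.47 with PBS. IL-4 array 1 lay among the PBS values, and the difference of 0.45 (adjusted p = 0.076) became 0.61 (adjusted p = 0.020) without that array and 0.56 (adjusted p = 0.040) without PBS array 1.

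Several of the genes are known to be induced by β-catenin and TCF in many tissues and to act back on the pathway, a grouping put together here after the values were seen. Of Axin2, Nkd1, Lgr5, Rnf43, Notum, Dkk1 and Lef1, Dkk1 rose, Lef1 fell and 5 missed the test. Axin2, the member most often read as a measure of canonical signalling, measured 4.36, 5.38, 5.10 and 5.14 with IL-4 and 5.30, 5.23, 5.27 and 4.81 with PBS. IL-4 values lay on both sides of the PBS values, the gene was dim, and the difference of -0.16 had a 95% interval of -0.62 to 0.30 (adjusted p = 0.60), so that changes within that range are not excluded.

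The PBS arrays differed among themselves more than the IL-4 arrays on most of these genes. The SD was higher among PBS arrays for 37 of the 54, with a median of 0.167 among IL-4 arrays and 0.233 among PBS arrays. It exceeded 0.5 among IL-4 arrays for 1 gene, Sfrp4, and among PBS arrays for 5 (Fzd10, Lgr4, Rnf43, Fzd5 and Nkd1). Lgr4 and Fzd5 shared 1 order among the PBS arrays, highest on array 1, then 3, then 4 and lowest on array 2. Of the 12 neuronal markers, 4 had that same order (Tubb3, Syt1, Snap25 and Gap43) and 8, Map2 and Gad2 among them, were higher on PBS array 2 than on array 1. Of the 8 OPC markers 1 had it, Cspg4, and 4 were higher on PBS array 1 and 4 on array 2. Mean signals of the 8 markers of mature oligodendrocytes were 13.92, 15.47, 14.78 and 14.58 on PBS arrays 1 to 4, lowest on array 1, as was Nkd1. The part of the makeup of the cultures in the values of Lgr4, Fzd5 and Nkd1 was not tested.

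**Figure D3:**
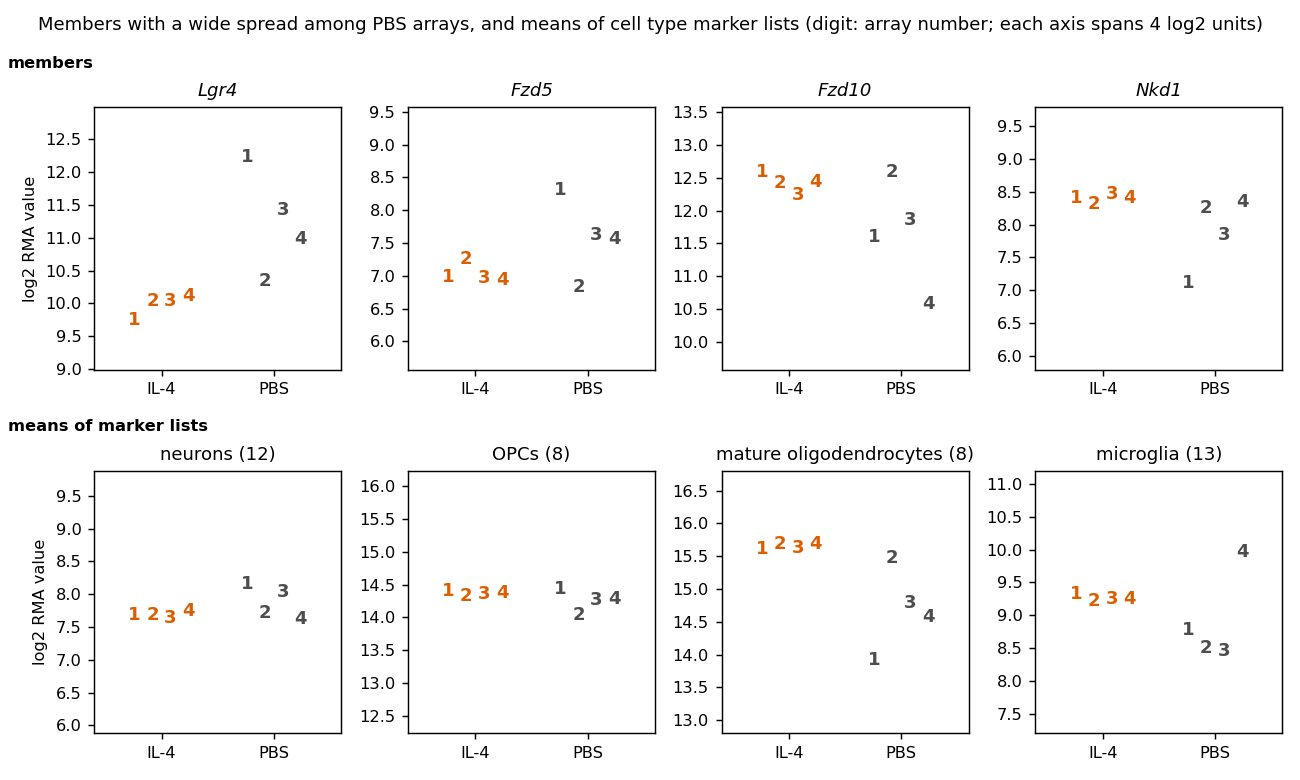
Log2 RMA signal by array, each digit being an array number, IL-4 in orange and PBS in grey, for 4 Wnt pathway genes with widely spread PBS values (top) and the means of 4 lists of cell type markers with the number of markers in brackets (bottom), on axes that all span 4 log2 units. Lgr4 and Fzd5 run in the order 1, 3, 4, 2 from the highest PBS array to the lowest. The neuronal and OPC means are both highest on PBS array 1, the neuronal mean lowest on array 4 and the OPC mean on array 2. The microglial mean is highest on PBS array 4.

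Of 60 further genes of the pathway on a separate list, 51 were measured, and 13 rose (25.5%) and 12 fell (23.5%), against 12% and 19.7% of all probe sets. The list was chosen with earlier results of these data known, so the shares are not a test of the pathway. All probe sets include 8139 without a gene symbol, and 11 of these 51 genes were dim. None of them passed with the IL-4 arrays averaged to 1 sample (10 higher and 7 lower at an unadjusted p under 0.05 in limma). Among genes of secretion and the R-spondins, 4 of 5 rose. Wls, which carries Wnt proteins to the surface, measured 12.44, 12.47, 12.19 and 12.37 with IL-4 and 11.36, 11.35, 11.80 and 11.71 with PBS. The groups were well apart, and it rose by 0.81 (adjusted p = 0.0017). Rspo2 and Rspo3, ligands of the LGR receptors, rose by 0.79 and 0.80 and were dim. Ndp encodes norrin, which signals through FZD4, LRP5 and TSPAN12, and it measured 6.77, 6.64, 6.60 and 6.63 with IL-4 and 4.97, 4.88, 5.25 and 6.10 with PBS. PBS array 4 came nearest to the IL-4 arrays, and Ndp rose by 1.36 (adjusted p = 0.0017). Of its receptor genes, Fzd4 fell and Lrp5 rose as given above, and Tspan12, named here after its value was seen, differed by -0.06 (95% interval -0.33 to 0.22).

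Among the other receptors Ror1, a receptor for Wnt5a, rose by 0.89 (adjusted p = 0.0023) and 5 of 6 missed the test. Of the inhibitors Cer1 rose by 1.03, from a PBS mean of 4.57 that lay under the limit for dim genes. Dkkl1, which was dim, rose by 0.40 with an adjusted p of 0.049, at the limit of the test. Frzb, a secreted frizzled-related protein, fell by 0.50. In the destruction complex and cytoplasm 1 of 9 rose and 4 fell. Btrc, the ubiquitin ligase subunit that recognises marked β-catenin, measured 10.56, 10.24, 10.18 and 10.08 with IL-4 and 11.42, 11.58, 11.76 and 11.21 with PBS. It was lower on every IL-4 array and fell by 1.23 (SE 0.150, adjusted p = 3.3e-04). Gsk3a, Csnk1d and Tnks fell by 0.51, 0.52 and 0.52, while Csnk1e, a kinase that acts on Dishevelled, rose by 0.48 with overlapping groups (adjusted p = 0.031). Thus Gsk3a fell (95% interval -0.73 to -0.28) while Gsk3b missed the test, and the difference between these 2 changes was not tested.

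Of 9 nuclear partners of β-catenin, Pygo1, a co-activator, rose by 0.77, and Ctnnbip1 and Cby1, which both hold β-catenin off TCF factors, fell by 0.58 and 0.53. The groups overlapped on Cby1 (adjusted p = 0.042). In the planar cell polarity branch, which does not use β-catenin, Celsr2 rose by 1.12 (adjusted p = 4.8e-04), and Prickle1, Prickle2, Vangl1 and Celsr3 fell by 0.72, 0.56, 0.57 and 0.49. On Vangl1 and Celsr3 the groups overlapped (adjusted p of 0.044 and 0.045). Of 10 genes often listed as targets, 3 rose and 1 fell. Ccnd1, which encodes cyclin D1, measured 13.59, 13.71, 13.61 and 13.60 with IL-4 and 11.24, 11.60, 11.45 and 12.39 with PBS. All IL-4 values lay over 1 log2 unit above the highest PBS value, and it rose by 1.96 (SE 0.210, adjusted p = 1.7e-04), or 3.88-fold. Cd44, a hyaluronan receptor, rose by 1.30 and Myc by 0.72, and Mmp7, which was dim, fell by 0.45. These 3 that rose are also regulated by many other signals. On Ccnd1, Ndp and Myc the highest PBS value was that of array 4, which also had it on 12 of 13 microglial markers. Of these 13 markers, 6 rose and 2 fell with IL-4. The part of microglia in the values of Ccnd1, Ndp and Myc was not tested.

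**Figure D4:**
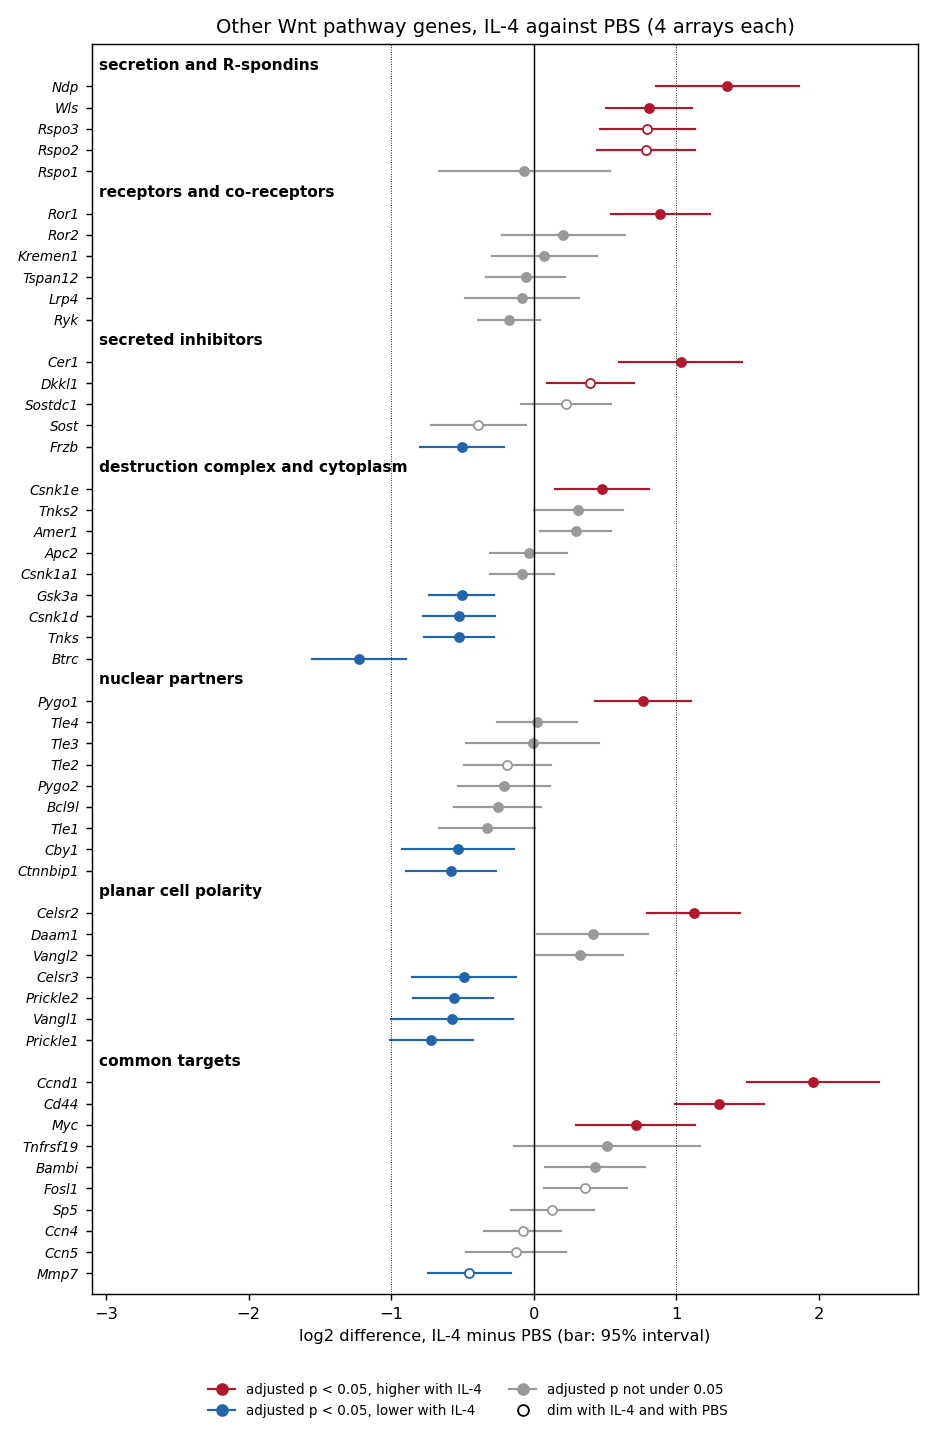
Log2 difference, IL-4 minus PBS, of the 51 further Wnt pathway genes by sublist, with the 95% interval of the limma fit as a bar (4 arrays per treatment) and the colours and open circles used for the 54 genes. Ccnd1 lies farthest to the right at 1.96 and Btrc farthest to the left at -1.23.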

How the data were processed

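RNA of 8 rat OPC samples was hybridised to Clariom S arrays (Affymetrix), 1 array per sample. The authors used Affymetrix Expression Console for the images and Transcriptome Analysis Console 4.0 for the analysis, and the submitters' processing notes name RMA and the build rn6. The deposited values are the authors' log2 signals per probe set after RMA, which corrects background, normalizes the arrays and summarizes probes, and no further scaling was applied. Array medians lay between 6.13 and 6.16. Of 23188 probe sets, 15049 carry 1 gene symbol in the array's probe table and 8139 carry none. All 54 genes have 1 probe set each. Limma 3.58.1 in R 4.3.3 (lmFit, eBayes) tested IL-4 against PBS over all probe sets, with Benjamini-Hochberg adjustment, after a check on simulated data. Python 3.11.15 with pandas 2.3.3 and matplotlib 3.10.9 gave the tables and figures.

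The members, the lists, the roles and the motifs were chosen with earlier results of these data known. All members that passed are named with values. So are, in each role, the 2 with the highest signal among those that missed the test (the 2 with the smallest p where none passed). Of the further genes, those past 2-fold and up to 3 others per sublist by p are named. Csnk1e, Celsr3, Fzd5, Nkd1, Axin2 and Tspan12 were added after their values were seen. Values of Dvl2 and Nkd2 are also given, outside this rule. Alternatives were quantile normalization, subtraction of array medians, omission of probe sets whose mean lay under the 40th percentile, and an intensity trend with a robust prior. Others were array weights, a replicate block, the mean of the IL-4 arrays as 1 sample, and each array left out in turn. A further one was a t-test of equal variance with Benjamini-Hochberg adjustment, which the paper does not name for the arrays. Leaving out PBS arrays 1 and 4 together was added after the data were seen.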

Additional observations from a re-analysis of the deposited data

Results flagged for a closer look

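In 8 of 108 groups of 4 arrays (7.4%, where chance gives about 1 in 20), 1 array lay apart from the other 3 by Dixon's test, and no array held more than 2 of the 8. Among IL-4 arrays these were Wnt16 at 4.91 on array 2 (others 5.34 to 5.42), Wnt7a at 5.81 on array 1 (others 5.69 to 5.70), Wnt8b at 4.91 on array 3 (others 4.23 to 4.32), Fzd5 at 7.25 on array 2 (others 6.93 to 6.98) and Fzd6 at 4.25 on array 4 (others 4.02 to 4.05). Among PBS arrays they were Notum at 3.66 on array 4 (others 2.93 to 2.94), Lgr5 at 6.73 on array 3 (others 6.28 to 6.31) and Axin2 at 4.81 on array 4 (others 5.23 to 5.30). Of these genes Wnt8b passed the test, and its rise of 0.69 was 0.53 (adjusted p = 0.057) without IL-4 array 3.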

How the results depend on the processing

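No direction of a named member that passed was reversed by any alternative. Of the 15 calls, 8 were kept without each array in turn, and 7 of these also in every other alternative that tested them except the IL-4 arrays averaged to 1 sample, in which all 6 counts were 0: members that rose (8 in the comparison as reported) or fell (7), members past 2-fold that rose (1) or fell (2), and further pathway genes that rose (13) or fell (12). Without probe sets whose mean lay under the 40th percentile, which leaves 31 members to count, 5 rose, 4 fell and 1 fell past 2-fold. That cut is not the limit used for dim genes, and beside dim genes it left out Lef1, which was not dim. The t-test of equal variance left 4 that fell, 1 of them past 2-fold. Without PBS arrays 1 and 4 together 4 rose and 1 fell past 2-fold. With 1 array left out, 3 to 8 members rose, 5 to 9 fell, 1 to 2 rose past 2-fold and 1 to 3 fell past it. The count of those that rose was 4 without PBS array 3 or IL-4 array 2 and 3 without IL-4 array 3, and the count past 2-fold was 2 that rose without PBS array 2, 1 that fell without PBS array 1 and 3 that fell without IL-4 array 1. The further genes ranged from 11 to 16 that rose and from 8 to 11 that fell. The replicate block gave 6 that rose and 7 that fell, without the calls on Lrp5 (adjusted p = 0.066) and Dvl3 (adjusted p = 0.061). Deviations of same-numbered arrays from the means of their treatments had correlations of -0.018 to 0.006. These values do not settle whether such samples shared a culture, which the labels do not say. Quantile normalization moved the median of all probe sets from -0.07 to -0.01. The cause of these differences was not tested. Signals near those of olfactory receptor genes, and 4 arrays per treatment, limit what can be read.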
